A study of Mus musculus with 11 samples.

Results

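The cortex on the non-infarcted side was compared with naive cortex 7 d after a photothrombotic stroke. The comparison rests on 2 libraries at 7 d, 1 without and 1 with levetiracetam (LEV), set against the 1 naive library, out of 11 in the series. Genes with a mean of at least 1 CPM (tags scaled to a fixed library total) over these 3 libraries were tested, which holds for 15963 of 22377 genes. A gene counts as changed only if both 7 d libraries lie on the same side of naive, which holds for 12285 genes.

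Whole cerebral cortex was profiled by cap-trapping CAGE, which counts 1 tag for each captured capped 5′ end, from male C57BL/6N mice. The stroke was made in the left parietal cortex: rose bengal, a light-sensitive dye, was given at 35 mg/kg intraperitoneally, and a spot of 3.5 mm was lit for 30 minutes. The naive mice had neither stroke nor drug by their label, and no group had a sham operation. LEV, an anti-seizure drug that binds the vesicle protein SV2A, was drunk freely at 5 mg/mL for 2 weeks. The design text starts LEV 1 month after the stroke, which does not match a library labelled with LEV at 7 d, and the label was followed. Mice of 8 to 10 and of 65 to 85 weeks were used, and the age behind a library is not given. Neither are the number of mice in a library, any pooling, and whether both sides come from the same animals. Further groups used below are the non-infarcted side at 1 m (without and with LEV) and at 2 m after withdrawal of LEV, and the infarcted side at 7 d (without and with LEV).

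After a focal stroke the opposite hemisphere keeps its blood supply, but it is linked to the injured side through callosal and thalamic connections. It is also reached by circulating signals. Immediate early genes are transcribed within minutes of neuronal firing or of growth factor signals without new protein synthesis, and encode mostly transcription factors of the FOS, EGR and NR4A families. Glucocorticoid response genes are switched on by the steroid receptor, and interferon response genes through STAT proteins.

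The 3 libraries compared hold 12928291 tags for naive, 17986333 at 7 d and 18810094 at 7 d with LEV. With 3 tags taken as the floor, the limits were 0.232, 0.167 and 0.159 CPM. Excitatory cortical markers, 12 genes, summed to 2560, 2289 and 2707 CPM in the same order. These sums show that the markers were present, not how much other tissue a dissection held. Some genes split the libraries into sets that the labels do not name. The median absolute log2 difference from naive was 0.205 and 0.189 for the 7 d libraries and 0.230 for the 2 m library, against 0.141 and 0.175 for the 1 m libraries. It was 0.142 between both 7 d libraries. Atp5e, a subunit of mitochondrial ATP synthase, was picked from these data for such a split and is an example only. It was at 583.7 CPM in naive, 243.1 and 251.8 at 7 d and 288.0 at 2 m, against 760.4 and 924.5 at 1 m. The labels give no batch. With 1 naive library, a difference between sets of libraries and a difference between 7 d and naive cannot be told apart.

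Of the genes tested with limma at an adjusted p under 0.05, 361 rose (2.26%) and 323 fell (2.02%) in the 7 d non-infarcted cortex. Past 1.5-fold in both libraries were 414 genes upward (2.59%) and 404 downward (2.53%), and 6665 genes (41.8%) lay above naive in both and 5620 (35.2%) below. Of the genes that rose, 341 had both 1 m libraries on the naive side of both 7 d libraries, and 243 had naive and 1 m all below 7 d and 2 m. Of those that fell, 290 and 241 showed the mirrored arrangements. These arrangements were counted among called genes only, which were picked for 7 d libraries that lie away from naive. Without the share over all genes tested, the counts cannot show whether the arrangements are unusual. The test has 1 residual degree of freedom and borrows its spread from other genes (29.1 prior degrees of freedom). It called 684 genes in all, but 23 when the other 3 non-infarcted libraries entered the fit. Without the expression limit limma called 0 genes, with 2564 at an unadjusted p under 0.05; edgeR, with the limit, called 729. With TMM factors 42.4% of the called genes were higher, and with edgeR 38.8%, against 52.8% here.

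Immediate early genes rose on the non-infarcted side. Of 20 genes, all tested, 10 rose, against 2.26% of all genes, and none fell. The median difference of the list was 0.60 on the log2(CPM + 1) scale, beside 0.02 for all genes tested, and 0.74 and 0.34 for the libraries without and with LEV. Past 1.5-fold in both libraries were 8 genes. By size of the difference the 10 that rose run from Egr2 through Fos, Junb and Egr1 to Fosb, Nr4a1, Egr4, Nr4a3, Arc and Fosl2.

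The letters just upstream of these genes are shown for 5 that rose, because cAMP-response elements (CRE) and CArG boxes are the textbook binding letters of CREB and serum response factor at such genes. The windows run from 250 bases before to 50 after a RefSeq start (GRCm38.p6). Capitals mark the CRE half-site TGACG or its reverse complement CGTCA, and in Egr2 also a CArG box.
Fos, chr12:85473640-85473939, plus strand: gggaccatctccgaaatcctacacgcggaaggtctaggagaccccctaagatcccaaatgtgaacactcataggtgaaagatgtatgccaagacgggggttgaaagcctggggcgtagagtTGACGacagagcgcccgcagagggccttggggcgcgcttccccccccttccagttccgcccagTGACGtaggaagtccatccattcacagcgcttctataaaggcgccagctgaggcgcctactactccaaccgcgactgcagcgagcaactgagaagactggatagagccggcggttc
Egr2, chr10:67537619-67537918, plus strand: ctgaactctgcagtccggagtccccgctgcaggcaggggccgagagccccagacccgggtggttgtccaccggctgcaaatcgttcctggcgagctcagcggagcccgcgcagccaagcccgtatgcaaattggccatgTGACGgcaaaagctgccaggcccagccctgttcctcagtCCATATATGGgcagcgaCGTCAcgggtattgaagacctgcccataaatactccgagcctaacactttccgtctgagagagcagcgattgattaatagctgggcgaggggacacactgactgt
Junb, chr8:84978699-84978998, minus strand: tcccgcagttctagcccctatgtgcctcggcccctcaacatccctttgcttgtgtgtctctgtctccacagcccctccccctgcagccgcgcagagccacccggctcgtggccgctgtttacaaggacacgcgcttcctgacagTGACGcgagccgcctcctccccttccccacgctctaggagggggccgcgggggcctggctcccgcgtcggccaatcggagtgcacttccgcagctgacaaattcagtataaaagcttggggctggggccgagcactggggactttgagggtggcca
Nr4a1, chr15:101266596-101266895, plus strand: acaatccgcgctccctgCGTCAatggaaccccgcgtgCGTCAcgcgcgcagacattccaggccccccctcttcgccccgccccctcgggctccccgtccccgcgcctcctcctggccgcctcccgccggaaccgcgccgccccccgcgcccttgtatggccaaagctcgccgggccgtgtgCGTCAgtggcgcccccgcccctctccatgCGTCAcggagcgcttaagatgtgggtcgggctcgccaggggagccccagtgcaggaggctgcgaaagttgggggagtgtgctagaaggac
Egr4, chr6:85513540-85513839, minus strand: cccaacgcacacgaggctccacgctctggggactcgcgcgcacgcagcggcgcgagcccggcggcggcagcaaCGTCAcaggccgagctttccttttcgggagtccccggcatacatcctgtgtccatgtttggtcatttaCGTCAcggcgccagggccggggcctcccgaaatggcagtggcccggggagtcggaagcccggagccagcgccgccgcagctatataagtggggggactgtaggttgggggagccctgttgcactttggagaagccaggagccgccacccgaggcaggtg
A window was at hand for 14 of the 20 genes, and 12 of these held a CRE half-site in at least 1 window. By window the half-site was in 14 of 25, against 20.81% of all 32851 windows. A CArG box was found in 1 gene, Egr2, and in 1.629% of all windows. Of the 4 Egr2 windows with a box, 3 overlap and hold the same copy and the same CRE half-sites, so windows are not independent. A match of letters is no measured binding site.

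Egr2, a zinc-finger transcription factor, was at 4.87 CPM in naive and at 17.7 and 16.3 CPM at 7 d without and with LEV. It lies on chr10:67535475-67542188 (GRCm38). Both ratios to naive, 3.64 (95% exact interval 2.77 to 4.85) and 3.35 (2.55 to 4.47), lay far from 1; intervals here cover counting error only. The log2 difference was 1.62 with SE 0.18 (limma adjusted p = 1.14e-06). At 1 m it was at 9.30 and 11.05 CPM and at 2 m at 6.50, so both 7 d libraries were the highest of the non-infarcted side.

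Fos, the partner of JUN in the AP-1 factor, was at 7.43 CPM in naive and at 20.7 and 20.9 at 7 d. The other non-infarcted libraries held 11.4, 12.4 and 12.3 CPM, above naive and below both 7 d libraries. Its difference was 1.37 (SE 0.18, limma adjusted p = 6.35e-06). Junb, another AP-1 member, went from 35.7 CPM to 85.2 and 87.8, 2.39 and 2.46 times naive (SE of the log2 difference 0.15, limma adjusted p = 2.79e-06). For Junb the 2 m library was higher still, at 127.9 CPM, while 1 m stood at 41.5 and 47.4. These 3 genes also passed the fit over all 6 naive and non-infarcted libraries, with limma adjusted p of 0.00502, 0.00842 and 0.00831, and no other member did.

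Egr1, a widely used marker of neuronal activity, was at 224.6 CPM in naive and at 422.5 and 426.9 at 7 d, above the 277.2 to 315.6 of the later libraries (difference 0.92, limma adjusted p = 0.000258). Nr4a1, an orphan nuclear receptor, went from 72.9 to 122.4 and 139.5 CPM and Egr4 from 49.97 to 86.1 and 89.1. Nr4a3 was at 13.2 CPM in naive and at 22.7 and 20.6. In these 4 genes the groups did not overlap, and the 7 d libraries were the highest of the non-infarcted side. In the whole list 16 of 20 genes lay above naive in both libraries, against 41.8% of all genes. Both 7 d libraries were the highest of the 6 naive and non-infarcted libraries in 9 of 20, against 2345 of all 15963 genes. Naive was the lowest of these 6 in 10 of 20, against 1300 of all genes. The infarcted side at 7 d, without and with LEV, also stood above naive for Egr2 (12.9 and 16.0 CPM) and Fos (13.7 and 14.8). For Arc, at 116.6 and 90.7 CPM, only the library without LEV did. Fosb went from 3.64 to 8.01 and 7.07 CPM, but the 1 m library with LEV stood at 8.05.

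Arc, whose product acts at dendrites in synaptic plasticity, was the member with the largest gap between the 7 d libraries among those that rose: 195.6 CPM without and 119.9 with LEV, against 96.3 in naive. Fosl2 showed a similar gap, at 52.7 and 35.6 CPM against 27.3. Bdnf, a neurotrophin gene, was at 15.5 in naive and at 27.0 and 19.9 CPM (limma adjusted p = 0.0737), and Npas4, a neuron-restricted factor, at 9.20, 14.2 and 11.9 (adjusted p = 0.171); neither passed. Jun was the only member below naive in both libraries, at 70.5 against 59.7 and 60.6 CPM, and did not pass. Homer1, Nptx2 and Sik1 lay on different sides of naive in the 2 libraries. Left out in turn, the 7 d library without LEV took the count from 10 to 4 and that with LEV to 5, in fits with the later non-infarcted libraries, where the lone 7 d library is assumed to vary like the others. With the other non-infarcted libraries in the fit the count was 3.

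**Figure D1:**
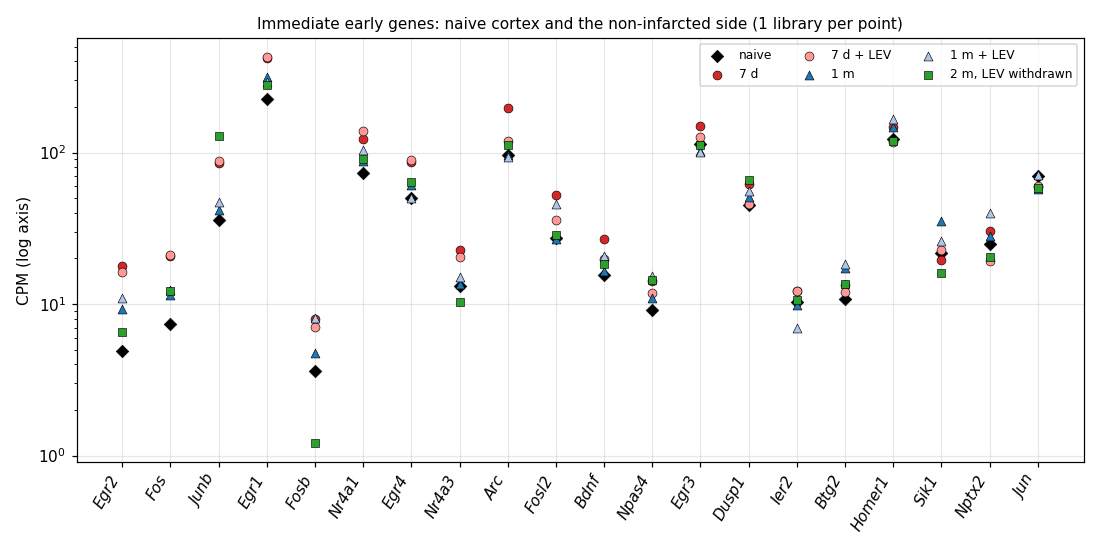
CPM on a log axis of the 20 immediate early genes in naive cortex and in the 5 non-infarcted libraries, 1 point per library, ordered by the difference between 7 d and naive. For Egr2, Fos, Egr1, Nr4a1 and Egr4 both 7 d points lie above every other point, and at the right end of the axis the points mix.

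Glucocorticoid response genes moved the other way in part. Of 14 genes, 4 fell, against 2.02% of all genes, none rose, and the median difference was -0.24. Plin4, which coats lipid droplets, was at 16.5 CPM in naive and at 3.95 and 4.31 at 7 d, a difference of -1.77 (SE 0.20, limma adjusted p = 1.14e-06). It stayed between 3.34 and 5.43 CPM in the later non-infarcted libraries and between 3.80 and 6.87 on the infarcted side, so naive stood apart from all 10 others. Fkbp5, a co-chaperone of the steroid receptor, was at 41.4 CPM in naive and at 23.3 and 27.6, and the later libraries held 20.8 to 27.5. Arrdc2, an arrestin-domain gene, was at 19.8 CPM in naive and 10.7 and 11.5 at 7 d. Sult1a1, a sulfotransferase gene, was at 17.6 against 10.8 and 10.95 CPM. In these 4 genes naive was the highest of the 6 naive and non-infarcted libraries. This held for 8 of the 14 genes, against 1711 of all 15963 genes. Plin4 alone passed in the fit over those 6 (limma adjusted p = 0.00534). Without the 7 d library that lacks LEV that fit called 2 members, and without the other 1.

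Other genes of the list did not follow. Sgk1, a kinase, was at 100.01 CPM in naive and at 93.3 and 106.3, and Tsc22d3, which encodes GILZ, at 82.4 against 85.6 and 81.6. Both were lower at 1 m than at 7 d, with 47.9 and 54.0 CPM for Sgk1 (limma adjusted p = 0.000628) and 43.8 and 41.1 for Tsc22d3 (limma adjusted p = 0.00061). Cdkn1a was at 23.4 CPM in naive, 20.6 without and 8.03 with LEV, and did not pass (adjusted p = 0.077). The GRE half-site AGAACA, on either strand, was in 5 of 22 windows of the list, beside 18.97% of all windows, with none in the windows of Plin4 and Fkbp5 and 2 copies in that of Sult1a1.

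Neutrophil genes were high in 1 of the 2 libraries at 7 d. Of 8 markers, 6 were tested and 5 rose, against 2.26% of all genes. Their summed level was 13.3 CPM in naive, 179.4 at 7 d without LEV and 21.3 with LEV. The later non-infarcted libraries summed to 22.0, 11.4 and 9.29 CPM. S100a9, a subunit of the calprotectin dimer of neutrophil granules, was at 3.17 CPM in naive, 54.0 without and 6.01 with LEV. S100a8, its partner, was at 5.65, 58.8 and 6.96 CPM. Camp, the cathelicidin gene, was at 1.39, 38.5 and 2.82, and Ngp, a granule protein gene, at 0.541, 15.8 and 0.904 CPM. In the library with LEV the ratio to naive was 1.23 for S100a8 (95% exact interval 0.919 to 1.67) and 1.89 for S100a9 (1.31 to 2.78), so S100a8 was within counting error there. Without the 7 d library that lacks LEV, limma called 0 of the 6, with 2 at an unadjusted p under 0.05. The infarcted side of the same state held 20.1 CPM of S100a9, 29.8 of S100a8 and 10.6 of Camp, each below the non-infarcted side.

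Of 4 red cell markers, 2 were tested, both globin genes, and both fell, against 2.02% of all genes. The others were under the expression limit and did not both follow. In naive and at 7 d without and with LEV, Alas2 was at 0.232, 0.222 and 0.106 CPM and Slc4a1 at 0.0774, 0.389 and 0.106. Hbb-bs, an adult beta globin, was at 131.9 CPM in naive and at 84.8 and 25.2 without and with LEV (difference -1.49, limma adjusted p = 0.00405). Hbb-bt was at 25.4, 21.1 and 5.95 CPM (difference -1.09, limma adjusted p = 0.044). The tested globin genes summed to 157.3, 106.0 and 31.2 CPM. Without the library that had LEV, limma called 0 of both, with 1 at an unadjusted p under 0.05, and edgeR on the 3 libraries called 2. The part of blood left in the tissue in the neutrophil result was not tested. In these bulk libraries, fewer cells of a type and less RNA per cell cannot be told apart.

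**Figure D2:**
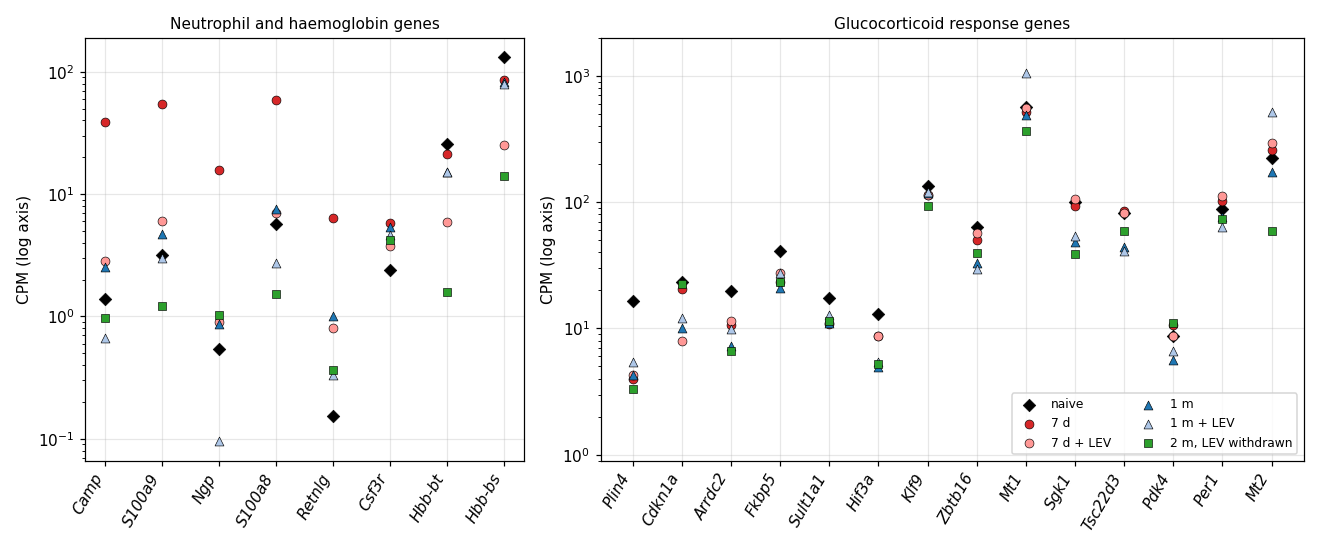
CPM on log axes of neutrophil and globin genes (left) and of the 14 glucocorticoid response genes (right) in naive and the 5 non-infarcted libraries, 1 point per library. The 7 d library without LEV stands alone for S100a8, S100a9, Camp and Ngp, and naive is highest for Plin4, Arrdc2, Fkbp5 and Sult1a1.

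Interferon response genes rose in a small number at low levels. Of 20 genes, 4 rose, against 2.26% of all genes, and none fell. In both libraries 15 lay above naive, against 41.8% of all genes, and the median difference was 0.30. Upward past 1.5-fold in both were 4 genes, against 2.59% of all genes. Downward past it was 1, which was not called, against 2.53%. Ifit1, which binds foreign RNA caps, was at 1.08 CPM in naive and at 3.84 and 2.66 at 7 d, and 1.53 to 2.37 later. Ifit3 was at 2.24 CPM against 5.95 and 4.89, with 2.19 to 3.46 later. Isg15, a ubiquitin-like protein gene, was at 5.88 against 12.01 and 10.4 CPM, and at 14.7 in the 2 m library. Ifitm3, an antiviral membrane protein gene, was at 23.8 against 38.8 and 33.7. Their log2 differences were 1.01, 0.98, 0.82 and 0.58, with limma adjusted p of 0.0202, 0.0105, 0.0122 and 0.0365. Limma called 0 of the 20 without the 7 d library that lacks LEV, with 5 at an unadjusted p under 0.05, and 0 with all 6 libraries in the fit, with 7; edgeR on the 3 libraries called 4. Irf7 and Stat2, which carry the signal to these promoters, lay on different sides of naive in the 2 libraries.

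The start regions of 3 of these genes are shown because each holds the letters GAAANNGAA, common to interferon-stimulated elements, 3 times. Capitals mark these letters or their reverse complement, TTCNNTTTC, which overlap one another in Ifit1 and Isg15 (RefSeq, GRCm38.p6).
Ifit1, chr19:34640639-34640938, plus strand: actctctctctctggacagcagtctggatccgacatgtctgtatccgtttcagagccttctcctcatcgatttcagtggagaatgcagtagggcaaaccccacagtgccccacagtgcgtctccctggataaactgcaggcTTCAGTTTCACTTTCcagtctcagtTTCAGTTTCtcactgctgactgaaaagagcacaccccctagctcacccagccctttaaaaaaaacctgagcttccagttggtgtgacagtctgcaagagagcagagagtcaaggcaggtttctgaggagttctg
Ifit3, chr19:34583279-34583578, plus strand: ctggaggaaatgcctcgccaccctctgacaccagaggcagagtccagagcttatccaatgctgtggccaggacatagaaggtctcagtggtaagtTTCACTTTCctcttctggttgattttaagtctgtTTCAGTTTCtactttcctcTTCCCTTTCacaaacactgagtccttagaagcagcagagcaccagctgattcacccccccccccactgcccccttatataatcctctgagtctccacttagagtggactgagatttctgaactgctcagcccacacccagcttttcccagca
Isg15, chr4:156200769-156201068, minus strand: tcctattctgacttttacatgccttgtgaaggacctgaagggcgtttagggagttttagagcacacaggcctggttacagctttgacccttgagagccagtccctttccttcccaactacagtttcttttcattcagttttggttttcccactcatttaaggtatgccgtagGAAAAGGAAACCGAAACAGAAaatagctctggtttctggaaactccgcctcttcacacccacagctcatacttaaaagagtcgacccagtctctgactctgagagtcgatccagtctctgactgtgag
Of 16 members with a window, 10 held this element, in 10 of 18 windows, beside 8.56% of all windows.

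Each microglial and other immune list below had at most 1 gene that passed the test, against 2.26% of all genes called higher. Among homeostatic microglial genes 1 of 12 tested rose: Fcrls, at 4.49 CPM in naive and 9.06 and 8.72 at 7 d (difference 0.85, limma adjusted p = 0.0121). Cx3cr1, the fractalkine receptor, was at 14.0, 20.6 and 19.1 CPM and did not pass (adjusted p = 0.114). Limma and edgeR called none of 13 disease-associated microglial genes, with 3 at an unadjusted p under 0.05 in each; Gpnmb was at 1.08, 3.28 and 2.23 CPM and Ctsd, a lysosomal protease gene, at 114.3, 169.1 and 151.0. Itgam, the CD11b chain of complement receptor 3, was the 1 of 13 complement genes that rose, from 3.87 to 9.06 and 6.27 CPM. Neutrophils express it as well, and their part in its level was not tested. Among antigen presentation genes, 1 of 14 tested rose: B2m, the light chain of MHC class I, from 47.3 to 81.2 and 62.8 CPM. Lyz2, a lysozyme gene of myeloid cells, rose from 10.1 to 22.6 and 14.0 CPM and was the 1 of 6 macrophage genes to pass. None of 8 cytokine and chemokine genes passed in limma or edgeR, with 4 and 3 at an unadjusted p under 0.05; Il1b, Tnf and Ccl3 were under the expression limit, at 0.723, 0.111 and 0.334 CPM in the 7 d library without LEV.

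Astrocyte genes rose in part. Of 12 homeostatic genes, 3 rose, against 2.26% of all genes. In fits with the later non-infarcted libraries limma called 0 of the 12, with 4 at an unadjusted p under 0.05. Without the 7 d library that lacks LEV it called 0, with 3 at that p, and without the other 1. edgeR on the 3 libraries called 3. The genes that rose are Kcnj10, the potassium channel Kir4.1, from 28.4 to 51.3 and 46.7 CPM; Gja1, connexin 43, from 65.2 to 121.2 and 94.7; and Mlc1, from 26.7 to 43.3 and 36.9. Kcnj10 stood above the 30.5 to 33.8 CPM of the later non-infarcted libraries, while Mlc1 reached 41.3 in the 1 m library with LEV. The glutamate transporter Slc1a2 was at 1302, 1331 and 1352 CPM and did not pass (adjusted p = 0.921). Of 11 reactive genes tested, 1 rose: Lcn2, a lipocalin gene that neutrophils express as well, from 1.01 to 4.89 and 3.03 CPM (limma adjusted p = 0.00299). Gfap, the astrocyte filament, was at 108.5 CPM in naive, 198.8 without and 117.2 with LEV, and did not pass (adjusted p = 0.143). Vim was at 18.8, 27.2 and 19.1 CPM.

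Of 14 myelin, 10 oligodendrocyte precursor and 14 endothelial genes, 1 each fell, against 2.02% of all genes. Above naive in both libraries lay 6 of the 10 precursor and 6 of the 14 endothelial genes, against 41.8% of all genes. Below in both lay 2 and 4, against 35.2%. The median differences of these 2 lists were 0.17 and 0.14, so the genes that fell do not stand for their lists. Myrf, the transcription factor of myelination, fell from 36.7 to 21.4 and 25.8 CPM, and 9 of the other 13 myelin genes lay on different sides of naive in the 2 libraries. Cspg4, the NG2 proteoglycan of precursor cells, fell from 9.20 to 5.17 and 4.47 CPM. Flt1, a receptor of vascular endothelial growth factor, fell from 59.9 to 33.3 and 29.8 CPM (difference -0.91, limma adjusted p = 0.000758), while 1 m stood at 66.9 and 55.3. Limma and edgeR called none of 11 pericyte and 13 meningeal fibroblast genes, with 1 of each at an unadjusted p under 0.05 in limma and 2 and 3 in edgeR.

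**Figure D3:**
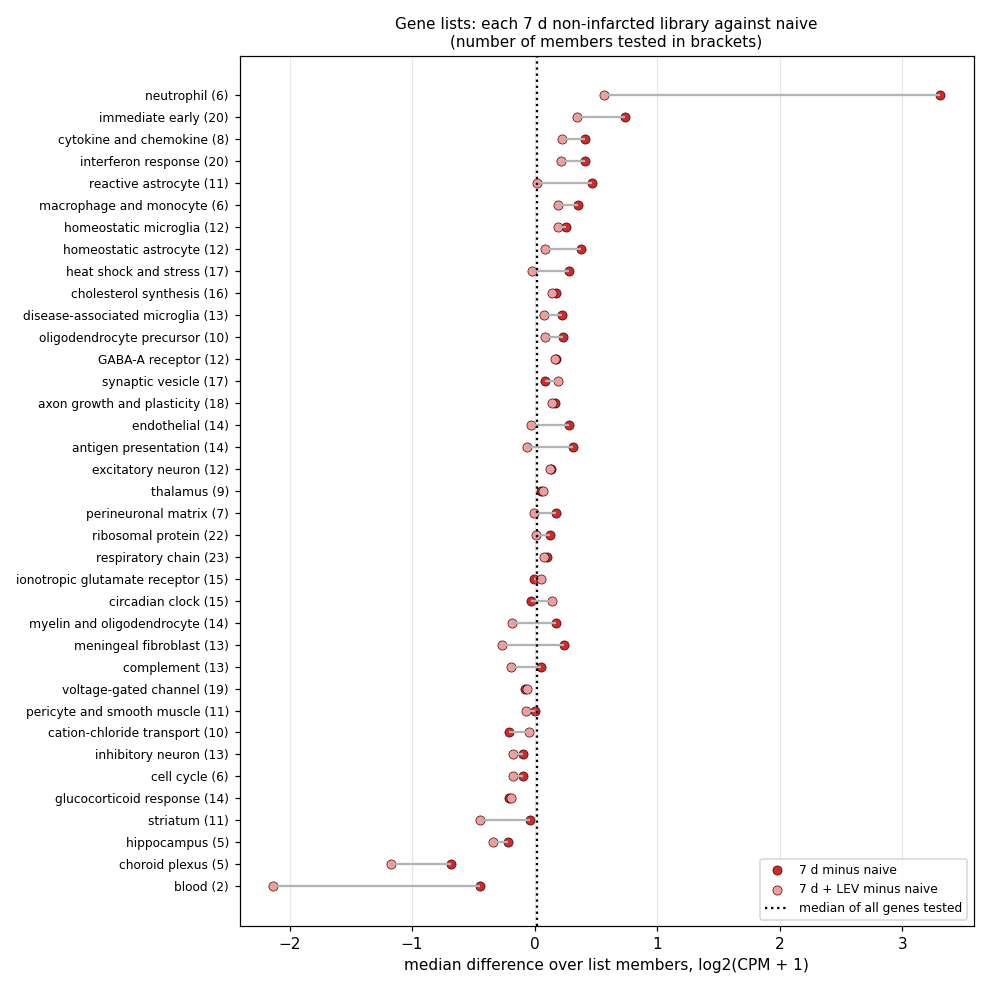
Median difference from naive on the log2(CPM + 1) scale for each of 37 gene lists, 1 point for each 7 d non-infarcted library, with the number of members tested in brackets. The neutrophil list is at 3.31 without and 0.56 with LEV, immediate early genes lie right of the line of all genes in both libraries, and choroid plexus and blood genes lie left.

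Some neuronal identity and synaptic genes passed the test. Of 12 excitatory genes, 1 rose, against 2.26% of all genes. This was Rorb, a nuclear receptor of layer IV neurons, from 39.1 to 64.4 and 71.3 CPM (difference 0.78, limma adjusted p = 0.00251). The later libraries ranged for Rorb from 9.96 CPM at 2 m to 68.6 at 1 m with LEV. Of 13 inhibitory genes tested, 1 fell, against 2.02% of all genes, and none rose. In both libraries 7 lay below naive, against 35.2% of all genes, and the median difference was -0.13. Gad1 and Gad2, which make GABA, were at 253.6 and 83.0 CPM in naive, 195.0 and 75.2 at 7 d, and 204.8 and 69.2 with LEV, and did not pass. Vip was at 28.2, 21.5 and 16.6 CPM (adjusted p = 0.0672).

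Of 12 GABA-A receptor genes 1 rose and 1 fell, against 2.26% and 2.02% of all genes. The subunit gene Gabra2 rose from 42.2 to 57.7 and 66.1 CPM. No ionotropic glutamate receptor gene among 15 passed in limma or edgeR, with 0 at an unadjusted p under 0.05 in either. Of 17 vesicle genes 2 rose and 1 fell, against 2.26% and 2.02% of all genes. Stx1a and Cplx1, which act in SNARE fusion, rose: Stx1a from 121.1 to 176.3 and 208.0 CPM, Cplx1 from 353.6 to 487.4 and 552.8. Syn1, a vesicle-tethering protein gene, fell from 357.1 to 248.4 and 230.8. Sv2a, the binding protein of LEV, was at 136.7, 147.8 and 157.8 CPM (difference 0.16, adjusted p = 0.602).

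Of 19 voltage-gated channel genes 1 rose and 1 fell, against 2.26% and 2.02% of all genes. edgeR on the 3 libraries called 0 higher and 1 lower. Scn1a, the sodium channel of Dravet syndrome, rose in limma from 93.2 to 126.5 and 144.5 CPM (difference 0.53, limma adjusted p = 0.0381). None of 10 cation-chloride transport genes passed in limma or edgeR, with 1 at an unadjusted p under 0.05 in each; Slc12a2, the importer NKCC1, was at 20.2, 22.6 and 22.7 CPM. Of 18 axon growth genes 1 rose, against 2.26% of all genes: Stmn2, a tubulin-binding protein of growing axons, from 109.9 to 183.8 and 159.4 CPM. Gap43 was at 219.2, 256.2 and 288.7 CPM and did not pass (adjusted p = 0.255).

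Choroid plexus genes gave the gene with the largest difference. Ttr, transthyretin, was at 349.7 CPM in naive and 16.3 and 10.4 at 7 d (difference -4.64, limma adjusted p = 9.44e-18). It was at 195.3 in the 1 m library with LEV and at 9.79 to 24.7 in the other libraries. Clic6 fell from 8.12 to 2.17 and 2.23 CPM. Of 12 choroid plexus markers 5 were tested, 2 fell, against 2.02% of all genes, and 4 were past 1.5-fold downward, against 2.53%; Slc4a5, under the limit, was at 1.86 CPM in naive and 0 at 7 d. Enpp2, which oligodendrocytes also express, was at 109.3, 114.8 and 113.6 CPM. The tested markers summed to 476.0, 138.4 and 129.6 CPM. Striatal markers summed to 939.0, 873.0 and 736.1 CPM, and Drd2, the dopamine receptor of striatal neurons, was the 1 of 11 that fell, from 14.6 to 8.28 and 8.29. None of 9 thalamic and 5 hippocampal markers passed in limma or edgeR; at an unadjusted p under 0.05 there were 0 and 1 in limma and 0 and 2 in edgeR. How much tissue other than cortex each dissection held was not tested.

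The 12 highest and 12 lowest genes past 1.5-fold hold mostly neutrophil genes, small RNAs and pseudogenes. Among the highest were Camp, S100a9, Ngp, Retnlg and Wfdc21, the last not called (limma adjusted p = 0.0596), and Egr2. Gm15580, a processed pseudogene in an exon of Cars on the other strand, had no tag in naive and 3.45 and 4.84 CPM at 7 d. It was at least 14.9-fold and 20.8-fold higher, taking 3 tags of the naive library as the floor. Bloc1s2-ps and Gm45855, also pseudogenes, were at 2.40 and 0.232 CPM in naive and at 12.01 and 1.501 at 7 d without LEV. Mir1982 (chr10:80828797-80828870), within an exon of Oaz1, was at 2.55 CPM against 10.4 and 10.1. Mir6418 (chr5:137529480-137529594), within an exon of Gnb2 and an intron of Epo, was at 2.48 against 11.2 and 8.77, and Snord96a, within an exon of Rack1, at 1.24 against 8.40 and 4.89. Each has the strand of its host, so its tags cannot be told apart from those of the host, and CAGE does not count mature miRNAs.

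Among the lowest besides Ttr and Plin4, Rny1, a Y RNA, was at 20.498 CPM in naive and 0.445 and 0.425 at 7 d. It was at 23.6 CPM at 1 m but 0.143 at 1 m with LEV and 0.668 at 2 m, so it splits the libraries at 1 m too. Rpph1, the RNA of RNase P, which shares its tags with Ccnb1ip1, was at 47.6 against 7.45 and 5.32 CPM. Gm22513, a small nuclear RNA, was at 10.4 against 1.06 and 2.02, Gm3511, a pseudogene, at 23.4 against 5.84 and 6.33, and Gm48142, another, at 38.7 against 8.28 and 5.85. Gm47305, whose tags are shared with Rn7s2 and Gm47299, and Gm10800 were at 6.42 and 4.18 CPM in naive and 0.890 and 0.500 at 7 d. Stxbp3, a syntaxin-binding protein gene, was at 17.9, 6.73 and 2.82 CPM, with 18.3 and 19.2 at 1 m and 5.65 at 2 m. Cox8b was at 8.74, 1.95 and 1.65. Dppa5a, a pluripotency gene, was at 3.40 CPM in naive and 0 in all 10 other libraries, at least 20.4-fold and 21.3-fold lower at 7 d.

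Small RNA genes made up 8.59% of the genes that rose and 10.5% of those that fell, against 2.82% of all tested. Pseudogenes made up 3.60% and 5.57%, against 1.86%. Respiratory chain and ribosomal protein genes moved in both directions. Cox7c fell from 585.5 to 348.9 and 312.8 CPM and Ndufa4 from 1822 to 1144 and 1109, while Ndufs1 rose from 83.7 to 141.4 and 124.8. Rpl37 fell from 867.1 to 408.0 and 485.8 CPM and Rps21, which shares tags with Mir3091, from 1080 to 487.2 and 515.0. Rpl10 rose from 106.5 to 265.5 and 177.1 and Rps6 from 262.7 to 522.2 and 426.4. Of 23 respiratory chain genes 2 rose and 3 fell, and of 22 ribosomal genes 4 and 3, against 2.26% and 2.02% of all genes. In the fit with the later non-infarcted libraries limma called none of either list, with 7 and 8 at an unadjusted p under 0.05, where edgeR on the 3 libraries called 2 higher and 4 lower of the first and 4 and 3 of the second. Without the 7 d library that lacks LEV it also called none, with 4 and 6 at that p. Without the other it called no respiratory chain gene, with 4 at that p, and 2 ribosomal genes. Cox7c was at 638.0 and 739.9 CPM at 1 m and 222.4 at 2 m, and Rpl37 at 891.1, 881.8 and 300.4.

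**Figure D4:**
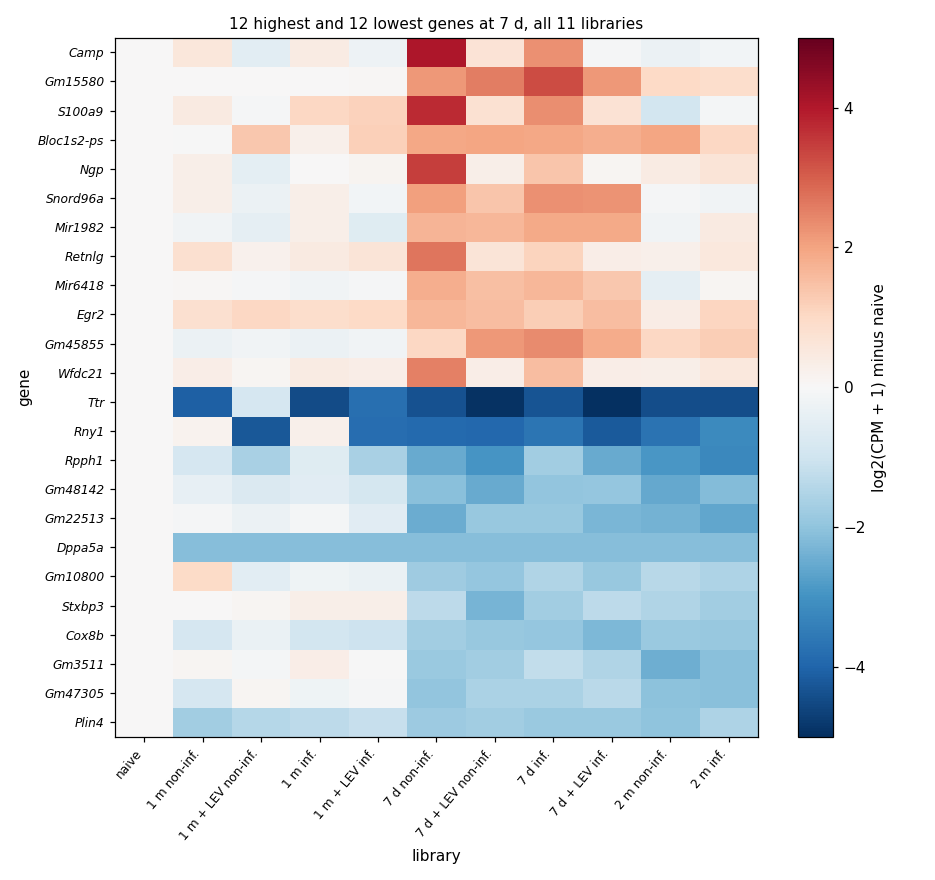
Difference from naive in log2(CPM + 1) of the 12 highest and 12 lowest genes at 7 d, shown in all 11 libraries, red above and blue below naive. The neutrophil genes are dark in the 7 d libraries without LEV, Plin4 and Dppa5a are blue in every library but naive, and many small RNAs and pseudogenes share their colour between 7 d and 2 m.

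Against the non-infarcted side at 1 m, tested with limma over 4 libraries with LEV as a second factor, 1027 genes were higher at 7 d (6.45%) and 952 lower (5.98%) of 15931. This test and the one against naive share the 7 d libraries. The test against 1 m has 1 residual and 13.9 prior degrees of freedom. The share of higher genes was 51.9%, but 38.9% with median centring, 28.5% with TMM factors and 29.3% with edgeR. Of the immediate early genes, 8 of 20 were higher at 7 d and none lower. The differences from 1 m were 0.95 for Junb, 0.76 for Fos, 0.69 for Egr2 and 0.66 for Egr4, with limma adjusted p of 0.000726, 0.006, 0.0136 and 0.00907. Of the glucocorticoid genes 6 of 14 were higher at 7 d than at 1 m and none lower, while Plin4 differed by -0.19 (limma adjusted p = 0.569). Of the neutrophil genes, 5 of 6 were higher at 7 d, and of the interferon genes 4 of 20.

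Against the infarcted side at 7 d, with LEV as a second factor, limma called 1371 genes higher on the non-infarcted side (8.41%) and 2537 lower (15.6%) of 16296. These pairs share the 7 d non-infarcted libraries with the comparison to naive. The test between the sides has 1 residual and 198.7 prior degrees of freedom. Its small p-values thus rest almost wholly on spread borrowed from other genes. The higher share was 35.1%, and 54.8% with median centring, 20.1% without the expression limit and 24.9% without the LEV factor. Of the immediate early genes, 11 of 20 were higher on the non-infarcted side and none lower, among them Egr1 by 0.63 and Nr4a1 by 0.62 (limma adjusted p = 3.24e-09 and 8.23e-09). Egr2 and Junb were not called between the sides, with adjusted p of 0.221 and 0.208. Other neuronal lists leaned the same way, so this direction is not particular to immediate early genes. Higher on the non-infarcted side were 14 of 17 vesicle, 8 of 12 GABA-A receptor, 7 of 12 excitatory and 7 of 13 inhibitory genes. None of these 4 lists had a gene called lower. Interferon genes were lower than on the infarcted side in 18 of 20, so Isg15 at 12.01 and 10.4 CPM stood between naive at 5.88 and the infarcted side at 41.3 and 55.8. Of 13 complement and 13 disease-associated microglial genes all were lower than on the infarcted side. Gfap was at 615.3 and 557.6 CPM there (difference -1.93, limma adjusted p = 3.43e-48). Of 6 neutrophil genes, 4 were higher and 1 lower on the non-infarcted side. The gap was widest in the pair without LEV. There S100a9 was at 54.0 against 20.1 CPM on the infarcted side, and Camp at 38.5 against 10.6. With LEV they were at 6.01 against 5.79 and 2.82 against 1.27.

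In 5 more lists limma called no gene against naive. At an unadjusted p under 0.05 it gave 2 of 15 circadian clock genes, 7 of 17 heat shock genes, 4 of 16 cholesterol synthesis genes, and none of 7 perineuronal matrix and 6 cell cycle genes. EdgeR called 1 heat shock genes and none of the other lists. Hspa8, a constitutive chaperone gene, was at 1040 CPM in naive and at 1547 and 1437 (adjusted p = 0.0596). Srebf2, the master regulator of sterol synthesis, was at 129.4, 181.1 and 181.7 CPM (adjusted p = 0.0526). Per2 was at 29.7, 37.6 and 41.3 CPM (adjusted p = 0.16) and Acan, an aggregating proteoglycan gene, at 2.24, 2.67 and 2.55.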

How the data were processed

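CAGE tags of 11 cortex libraries, 1 per group by the labels, were used. The authors deposited CPM for 22377 genes, relative to each library's own total. Per the submitters' processing notes, the build was GRCm38, and the tools included HISAT2 2.0.5, BWA 0.7.17 and DESeq2 1.20.0, with no role given. Every value is a whole number of tags within 0.01 tag, so tags were recovered. Totals run from 12928291 to 21000367 tags, with 92.3% to 97.3% in genes. Identifiers were matched to GENCODE M21 (99.8%), and 1133 genes share tags with a neighbour (at least 20 tags, counts within 5% in every library, within 5 kb).

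Genes with at least 1 CPM on average were, on the log2(CPM + 1) scale, tested with limma 3.58.1 (moderated 2-sided test, mean-variance trend, Benjamini-Hochberg) in R 4.3.3, over 3 libraries against naive and over 4 against 1 m and the infarcted side, each of the latter with LEV as a second factor. Ratios have exact 95% intervals on tags. No group has a second library, so p-values measure the spread between these libraries. edgeR 4.0.16 on the recovered tags was an alternative. Tests were checked on simulated data. Named are the 12 highest and 12 lowest genes past 1.5-fold in both libraries, up to 4 members per list with the largest same-side difference, and a panel of 34 genes. List members outside this rule and genes below the limit were chosen after their values were seen. Members and lists were chosen with earlier results of these data known. Motifs were searched on both strands. Python 3.11.15 with pandas 2.3.3, numpy 2.4.6, scipy 1.17.1 and matplotlib 3.10.9 was used. Some members of the inhibitory neuron, GABA-A receptor and voltage-gated channel lists are not reported here.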

Additional observations from a re-analysis of the deposited data

Results flagged for a closer look

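Mbp, Pvalb, Slc12a5 and Slc17a7 lay on opposite sides of naive in the 7 d non-infarcted libraries without and with LEV, each beyond its 95% exact interval of counting error, and the difference was not tested, since each state is 1 library. Mbp, myelin basic protein, was at 1.168 times naive without LEV and 0.8705 with it. Pvalb, the calcium buffer of fast-spiking interneurons, was at 1.187 and 0.8075. Slc12a5, the chloride exporter KCC2, was at 0.8207 and 1.162 times naive, from 408.5 CPM in naive to 335.2 and 474.6. Slc17a7, the vesicular glutamate transporter VGLUT1, was at 0.8207 and 1.074.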

How the results depend on the processing

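Against naive, 684 genes were called, and 0 without the expression limit, where limma's smallest adjusted p was 0.415. With the 3 other non-infarcted libraries in the fit 23 were called, and with all 11 libraries 18. Without 1 of the 7 d libraries, in fits that take their spread from the later libraries, 88 to 152 were called, of which 82 and 142 are among the 684. The other alternatives gave 640 to 937. The count past 1.5-fold was 818; it was 2933 without the limit, 358 at a mean of at least 5 CPM, 3085 at a lower fold, 141 at 2-fold, and 1550 to 1948 when 1 of the 7 d libraries was left out. Against 1 m, 1979 genes were called, and 1300 with TMM factors. Against the infarcted side, 3908 were called, and 2602 without the limit. Without the limit more genes enter the test and at 5 CPM fewer; otherwise the cause was not tested. Of 187 named genes 70 were called, and 0 of these changed sign under any alternative. That outcome was nearly fixed in advance. A call needs both 7 d libraries on the same side of naive, and every alternative compares these same libraries with the same naive library. With all 6 libraries in the fit, 55 of the 70 no longer passed. Counting per list was chosen after seeing the data. Against naive, no paired analysis was possible because each group has 1 library. The comparison with the infarcted side keeps LEV as a factor, and called 2930 genes without it. With 1 naive library, its own sampling enters every ratio, and genes near the floor of 3 tags are the least certain.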
